A study of Mus musculus with 6 samples.

Results

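The genes described are 37 interferon-stimulated genes of the mouse, measured by RNA sequencing in 6 libraries. They were taken as a fixed list of symbols, each matched to its Ensembl gene ID, and are 37 of 38561 gene IDs counted. All 37 had enough reads to be among the 19024 genes tested. The study compared 3 groups of 2 libraries: NG2 cells, the cells that an antibody to NG2 sorted out of skeletal muscle and that the labels call perivascular or pericytes; osteosarcomas, which are bone tumours; and soft tissue sarcomas. Every animal, including those that gave the normal NG2 cells, was NG2-Cre;p53flox/flox on a mixed background, so no group has p53 alleles without loxP sites, and the Cre recombinase is driven from NG2, the pericyte proteoglycan gene Cspg4. Of the osteosarcomas, replicate 1 grew in a right tibia and replicate 2 in the lumbar spine; both soft tissue sarcomas were subcutaneous. No age, treatment or animal number was used here, and nothing in the labels says that the 2 libraries of a group came from separate animals, so p-values measure the spread between libraries, which may be partly technical.

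Interferon-stimulated genes are the genes a cell switches on when it meets interferon. Type I interferons (Ifna, Ifnb1) bind the receptor Ifnar1/Ifnar2, and the kinases Jak1 and Tyk2 then activate a complex that holds Stat2 and Irf9 and binds the interferon-stimulated response element. Type II interferon (Ifng), made mainly by T and natural killer cells, acts through Ifngr1/Ifngr2, Jak1 and Jak2 on genes that carry the gamma-activated site. The products sense viral RNA, degrade it, stop translation, block membrane fusion or attack vacuoles that hold pathogens. In a tumour they can be made by cancer cells as well as by stromal and immune cells.

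The promoters of 6 members are shown, because these members carry the 2 findings described further on: Irf1 and Samd9l were the members that passed the test in a comparison with NG2 cells, and Rsad2, Gbp2, Oas1a and Isg15 were the 4 members with a promoter entry that differed most between the osteosarcoma libraries. Each run is the 250 bases before the annotated start, 5′ to 3′ on the gene's own strand, from RefSeq (GRCm38.p6). Capitals mark the core of the interferon-stimulated response element, which is GAAA, then NN, then GAAA in 1 run, read on both strands (TTTC, NN, TTTC on the other), with overlapping matches joined. In the Irf1 promoter, which has no such match, capitals mark TTCNNNGAA, the core of the gamma-activated site, which reads the same on both strands. The Samd9l promoter holds neither run of letters.
Irf1: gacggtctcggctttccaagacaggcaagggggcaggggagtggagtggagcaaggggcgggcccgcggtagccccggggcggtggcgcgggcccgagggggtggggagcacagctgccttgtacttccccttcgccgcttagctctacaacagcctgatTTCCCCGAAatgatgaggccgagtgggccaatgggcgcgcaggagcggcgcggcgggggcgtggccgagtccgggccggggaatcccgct
Samd9l: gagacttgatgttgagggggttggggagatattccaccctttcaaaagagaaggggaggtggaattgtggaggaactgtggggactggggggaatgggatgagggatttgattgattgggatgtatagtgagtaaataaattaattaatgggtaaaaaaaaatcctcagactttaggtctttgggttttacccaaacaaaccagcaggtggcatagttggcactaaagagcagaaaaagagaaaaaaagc
Rsad2: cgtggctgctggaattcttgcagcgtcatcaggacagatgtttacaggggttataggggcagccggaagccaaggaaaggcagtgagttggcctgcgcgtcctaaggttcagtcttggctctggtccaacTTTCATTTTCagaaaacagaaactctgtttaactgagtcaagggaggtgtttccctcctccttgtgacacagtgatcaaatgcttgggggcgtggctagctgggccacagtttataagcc
Gbp2: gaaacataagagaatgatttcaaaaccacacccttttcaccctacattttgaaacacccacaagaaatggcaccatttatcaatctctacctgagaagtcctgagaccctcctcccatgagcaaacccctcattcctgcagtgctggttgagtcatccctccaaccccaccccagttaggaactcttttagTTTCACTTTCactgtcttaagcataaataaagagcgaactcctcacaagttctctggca
Oas1a: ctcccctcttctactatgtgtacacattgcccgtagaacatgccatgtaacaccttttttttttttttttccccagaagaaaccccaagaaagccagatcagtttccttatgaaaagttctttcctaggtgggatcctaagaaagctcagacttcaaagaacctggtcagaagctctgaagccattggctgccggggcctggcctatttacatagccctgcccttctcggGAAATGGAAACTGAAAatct
Isg15: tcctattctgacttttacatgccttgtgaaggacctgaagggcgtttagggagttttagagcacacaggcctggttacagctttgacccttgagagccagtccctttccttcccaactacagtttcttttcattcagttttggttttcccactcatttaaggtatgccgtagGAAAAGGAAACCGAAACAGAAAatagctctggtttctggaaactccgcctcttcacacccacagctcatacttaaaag

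The Irf1 window lies at chr11:53769764-53770013 on the plus strand, and its gamma-activated core begins 90 bases before the start. The Samd9l window lies at chr6:3399572-3399821 on the minus strand. The Rsad2 window is chr12:26456453-26456702 (minus strand), with its response element 120 bases before the start, and the Gbp2 window is chr3:142620413-142620662 (plus strand), with its element 59 bases before the start. The Oas1a window is chr5:120907526-120907775 (minus strand) and holds 2 overlapping matches that begin 20 and 14 bases before the start. The Isg15 window is chr4:156200819-156201068 (minus strand) and holds 3 overlapping matches, the farthest beginning 78 bases and the nearest 66 bases before the start. Of the 37 members, 29 had a promoter entry; Parp14, Mx1, Ifi27, Usp18, Dhx58, Oas2, Mx2 and Rtp4 are named only. The response-element core was found for 13 of the 29, or 44.8%, against 936 of 27025 genes in the whole table, or 3.46%. The 13 are Stat2, Isg15, Ifit1, Ifit3, Oas1a, Oas3, Rsad2, Bst2, Gbp2, Gbp3, Igtp, Irgm1 and Trim30a. TTCNNNGAA, searched after the data were seen, was found for 7 of the 29, or 24.1%, against 2197 of 27025, or 8.13%; the 7 are Irf1, Ifit2, Oas1a, Isg20, Eif2ak2, Bst2 and Igtp. A match is a run of letters and no evidence that a factor binds there.

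The libraries held 27693585 to 58126832 reads on genes, and osteosarcoma replicate 1 was deeper (52056569) than replicate 2 (28107779). The names of the deposited data hold a digit that differs by group and was read here as the sequencing lane. If it is the lane, lane and group cannot be told apart. Trp53, the gene with the floxed alleles, measured 82.3 to 101.0 CPM (reads per 1e6 reads of the library, with TMM scaling) in the NG2 cells and 24.3 to 32.6 CPM in the tumours. The NG2 cells met their label in part. Rgs5, a pericyte marker, measured 772 and 1289.6 CPM in them and 17.4 to 151 CPM in the tumours, but of 10 pericyte and mural cell markers 8 had a log2 fold change above 0 in osteosarcomas against NG2 cells (2 rose, 1 fell) and 4 did in soft tissue sarcomas (0 rose, 1 fell). Cspg4 itself, which encodes NG2, measured 30.7 to 38.6 CPM in the sorted cells and 37.7 to 188 CPM in the tumours. B cell markers summed to 5537 and 1870 CPM in the NG2 cells, against 3.05 to 5.51 CPM in the osteosarcomas and 10.8 to 14.6 CPM in the soft tissue sarcomas. T and natural killer cell markers summed to 525 and 816 CPM in the NG2 cells, 6.35 to 13.1 CPM in the osteosarcomas and 36.9 to 64.6 CPM in the soft tissue sarcomas, and none of those 10 genes was at 0 in an NG2 cell library. Neutrophil markers summed to 64.4 and 3240 CPM in the NG2 cells and to at most 26.8 CPM in any tumour. Macrophage and monocyte markers ran the other way in the soft tissue sarcomas, summing to 5479 and 4516 CPM there and to 934 and 2498 CPM in the NG2 cells. In the osteosarcomas they summed to 2133 and 1982 CPM, between the NG2 cell libraries. Of these 10 markers 4 rose in each tumour and 1 fell in osteosarcomas. Every comparison with NG2 cells therefore also compares libraries with and without abundant lymphocyte RNA, and the part of that difference in the results was not tested. In whole tissue, fewer cells of a type and less RNA per cell cannot be told apart. The osteosarcoma libraries held both Xist and the Y-linked Ddx3y in replicate 1 (54.2 and 14.8 CPM), and Xist without Ddx3y to speak of in replicate 2 (204 and 0.0356 CPM), so these libraries differ in bone, in sex-linked transcripts and in depth at once. The NG2 cells held Xist (347 and 488 CPM) and 0 reads of Ddx3y, and the soft tissue sarcomas held Ddx3y (76.7 and 43.1 CPM) and almost no Xist (0.0839 and 0.135 CPM), so sex-linked transcripts divide these groups completely, and sex and group cannot be told apart in that comparison.

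Against NG2 cells, almost none of the interferon-stimulated genes passed the test in either tumour, where 9.40% to 11.0% of all tested genes passed in each direction. In osteosarcomas 1 member fell, Irf1, and 0 rose; over all tested genes 11.0% fell and 10.5% rose. In soft tissue sarcomas 2 members fell, Irf1 and Samd9l, and 0 rose, where 9.40% of all genes fell and 9.89% rose. Between the tumours 0 of 37 members passed in either direction, where 0.0841% of all genes were called higher and 0.0578% lower in soft tissue sarcomas (27 genes in all). At an unadjusted p under 0.05, 4, 5 and 0 members passed in the 3 comparisons, against 39.1%, 37.5% and 15.9% of all genes, and DESeq2 called 3, 4 and 0 members, against 35.5%, 34.4% and 10.6% of all genes to which it gave an adjusted p. A gene was called when the Benjamini-Hochberg adjusted p of edgeR's quasi-likelihood test, over all 19024 genes, was under 0.05.

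The 2 members that fell did so by about 3-fold and 5-fold. Irf1, a transcription factor that interferon gamma induces directly (ENSMUSG00000018899, chr11:53770014-53778374, plus strand), measured 197 and 225 CPM in the NG2 cells, 62.5 and 80.99 in the osteosarcomas and 69.96 and 79.1 in the soft tissue sarcomas. All 4 tumour libraries lay below both NG2 cell libraries, and the tumour groups overlapped. The fall was 2.94-fold in osteosarcomas (log2 fold change -1.56 ± 0.27, SE; adjusted p = 0.0162) and 2.83-fold in soft tissue sarcomas (-1.50 ± 0.27; adjusted p = 0.0191). Between the tumours the log2 difference was 0.06 ± 0.26, with a 95% interval of -0.58 to 0.69. Both calls were lost without either NG2 cell library or either soft tissue sarcoma library. With 1 library left out, the log2 fold change ran from -1.74 to -1.38 in osteosarcomas and from -1.59 to -1.39 in soft tissue sarcomas. Those fits leave 1 library in a group, and each that lost Irf1 also called fewer of all genes than the main fit. Other genes lost their calls there too, while some, such as Jak2 and Irf8 in osteosarcomas, kept them, and the cause was not tested. The same limit applies to calls given below as lost in such fits. Both calls were kept by DESeq2, with its size factors, without a filter, with the 2 groups alone, with a replicate block and without immunoglobulin genes. Ifng, the ligand that induces Irf1, was also higher in the NG2 cells, and 7 of 10 T and natural killer cell markers fell in each tumour (0 rose); their part in the Irf1 difference was not tested.

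Samd9l, which restricts poxviruses and can block protein synthesis (ENSMUSG00000047735, chr6:3372257-3399572, minus strand), measured 116 and 99.6 CPM in the NG2 cells, 18.5 and 54.8 in the osteosarcomas and 20.2 and 21.3 in the soft tissue sarcomas. The tumours again lay below both NG2 cell libraries, and osteosarcoma replicate 2 stood well above the other 3 tumours. The fall was 5.18-fold in soft tissue sarcomas (log2 fold change -2.37 ± 0.53; adjusted p = 0.0326, 0.000291 to 0.185 over the alternatives and lost without either NG2 cell library or either soft tissue sarcoma library). In osteosarcomas the log2 fold change of -1.55 ± 0.52 did not pass (adjusted p = 0.0787).

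**Figure D1:**
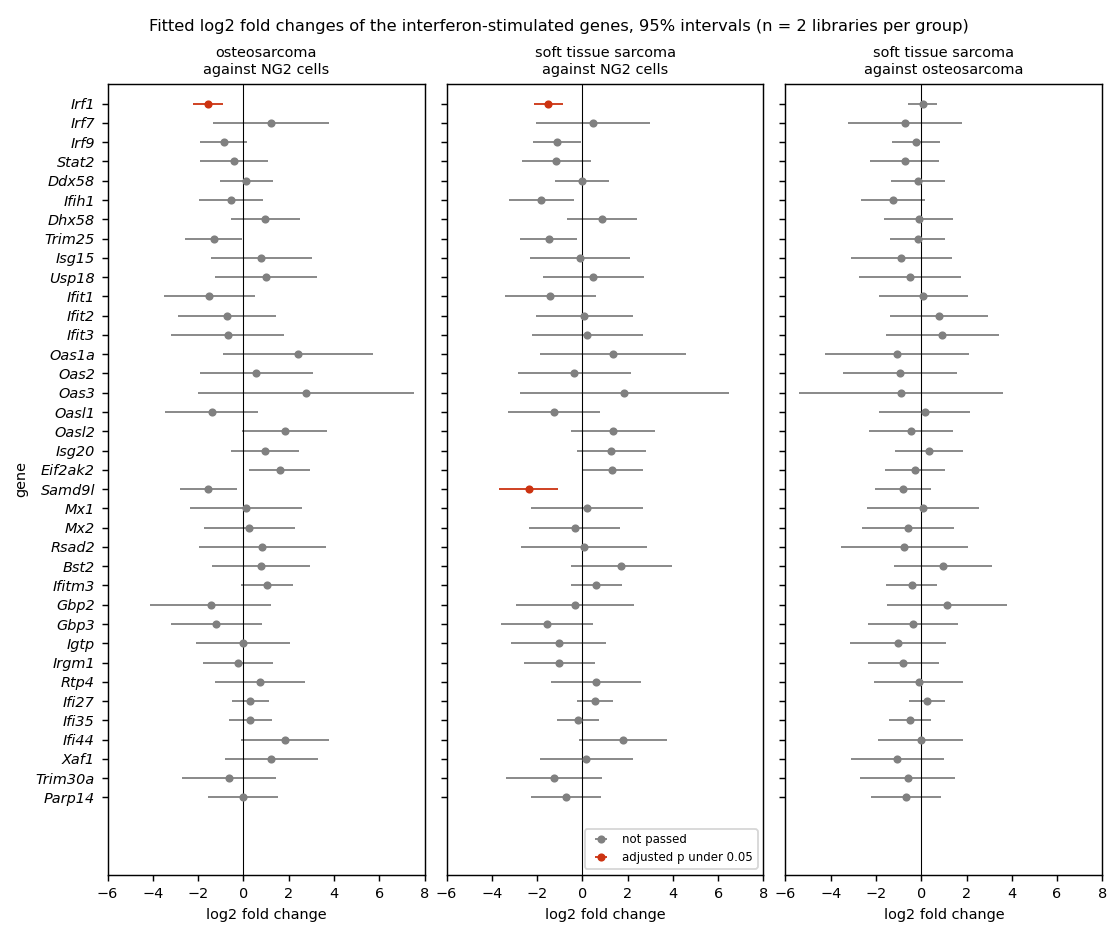
Fitted log2 fold change of each of the 37 members (points) with its 95% interval (bars) in the 3 comparisons, 2 libraries a group; red marks an adjusted p under 0.05. Irf1 is red at -1.56 in the left panel, Irf1 at -1.50 and Samd9l at -2.37 are red in the middle panel, no point is red in the right panel, and most bars cross 0.

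The other members gave wide intervals on both sides of 0, and failing the test does not show that they were equal. The median log2 fold change of the members was 0.26 in osteosarcomas against NG2 cells (0.04 over all genes), -0.02 in soft tissue sarcomas against NG2 cells (0 over all genes) and -0.42 in soft tissue sarcomas against osteosarcomas (-0.03 over all genes). The median standard error of a member was 0.83, 0.82 and 0.81 in the same order, against 0.63, 0.63 and 0.61 over all genes. The 95% interval included 0 for 33, 32 and 37 members, and it stayed within a change of 8-fold either way for 22, 24 and 26. By raw position, a smaller share of the members than of all genes had libraries that did not overlap between groups. In osteosarcomas 2 members lay above both NG2 cell libraries (Eif2ak2 and Ifitm3; 32.7% of all genes did) and 5 lay below (Irf1, Irf9, Trim25, Ifit1 and Samd9l; 32.4% of all genes). In soft tissue sarcomas 8 lay above (Dhx58, Oas1a, Oas3, Oasl2, Isg20, Eif2ak2, Ifi27 and Ifi44; 35.8% of all genes) and 11 below (Irf1, Irf9, Stat2, Ifih1, Trim25, Ifit1, Samd9l, Gbp3, Irgm1, Trim30a and Parp14; 34.6% of all genes). Between the tumours 0 members separated in either direction, where 25.8% of all genes lay higher and 24.5% lower in soft tissue sarcomas.

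Among the members, the median gap between the 2 libraries of a group was widest in the osteosarcomas. Replicate 2, from the lumbar spine, was higher than replicate 1, from the tibia, for 37 of 37 members, while 48.6% of all tested genes were higher in it. The median difference was 2.23 on the log2 scale (CPM plus 0.5), a ratio of 4.68, against 0 over all genes. At least 2-fold more was measured for 31 members (83.8%; 13.8% of all genes) and at least 4-fold more for 21 (56.8%; 4.77% of all genes). The summed level of the 37 genes was 1273 and 3791 CPM in the osteosarcomas, 2078 and 2831 CPM in the NG2 cells, and 2497 and 1573 CPM in the soft tissue sarcomas. The osteosarcomas thus held both the lowest and the highest sum of the 6 libraries. Replicate 1 was the lowest library for 22 members (15.5% of all genes) and replicate 2 the highest for 22 (17.5% of all genes). For 15 members the osteosarcomas lay on both sides of the NG2 cells, replicate 1 below both and replicate 2 above both (4.23% of all genes), and for 26 they did so around the soft tissue sarcomas (8.62% of all genes). These are comparisons of single libraries, without a test.

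**Figure D2:**
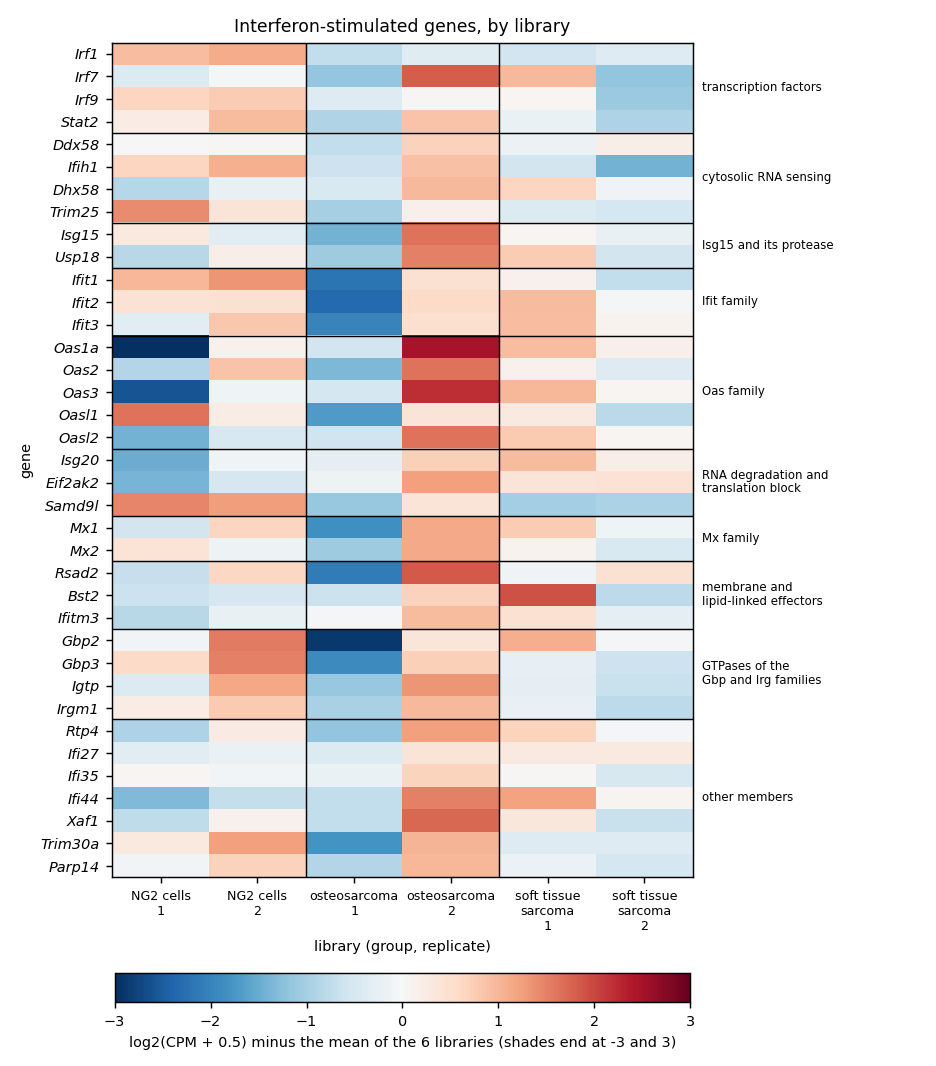
Level of each member (rows, by role) in each library (columns), as log2(CPM + 0.5) minus the member's mean over the 6 libraries; red is above and blue below that mean. The column of osteosarcoma replicate 1 is mostly blue and that of replicate 2 almost all red, and replicate 2 exceeds replicate 1 in 37 of 37 rows.

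The other groups were less divided. In the NG2 cells replicate 2 was the higher library for 31 of 37 members, with a median difference of 0.64 (47.4% of all genes were higher, with a median of 0), and 11 members, or 29.7%, were at least 2-fold higher in it, against 11.6% of all genes. Neutrophil markers were higher in that library for 7 of 7 genes, at a median ratio of 47.5, endothelial markers for 8 of 8, T and natural killer cell markers for 8 of 10 and macrophage and monocyte markers for 8 of 10, while B cell markers were lower for 8 of 8 and pan-leukocyte markers for 5 of 5. In the soft tissue sarcomas replicate 2 was the lower library for 31 of 37 members, with a median of -0.73. Of all 19024 tested genes 9754 were lower in it, with a median of -0.02. Macrophage and monocyte markers were lower in it for 10 of 10 genes, T and natural killer cell markers for 9 of 10, endothelial markers for 7 of 8 and pan-leukocyte markers for 5 of 5. The part of these markers in the member differences was not tested. Replicates of a group have no order, so these counts describe the spread that the tests work against.

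**Figure D3:**
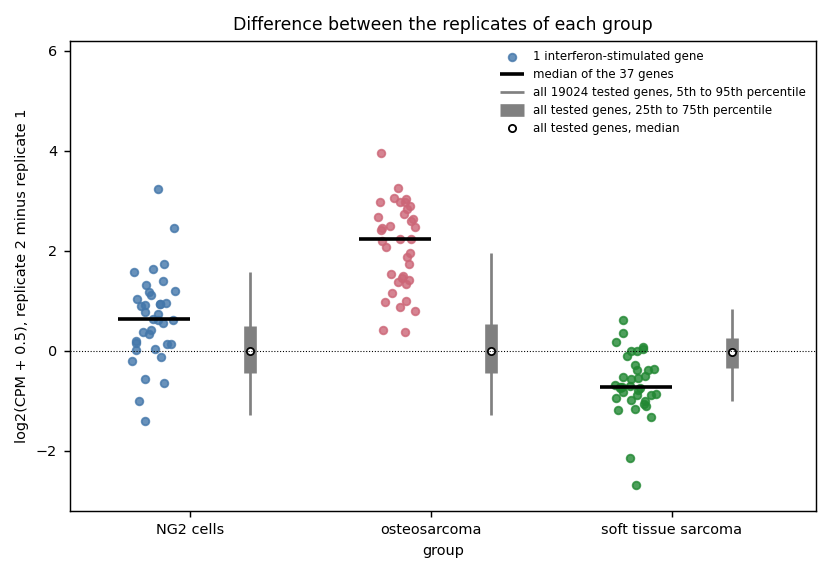
Difference between the replicates of each group, log2(CPM + 0.5) of replicate 2 minus replicate 1; each coloured point is 1 member, black lines are member medians, and grey boxes and lines give the middle 50% and 90% of all 19024 tested genes. The osteosarcoma points lie from 0.37 to 3.95, all above 0, while the median over all genes is 0.

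Among the transcription factors, Irf7 and Stat2 followed the osteosarcoma pattern and Irf1 and Irf9 did so weakly. Irf7, the factor that amplifies type I interferon production, measured 42.3 and 54.6 CPM in the NG2 cells, 25.01 and 199 in the osteosarcomas and 111 and 24.5 in the soft tissue sarcomas. Its osteosarcoma replicate 2 was the highest of the 6 libraries, 7.96 times replicate 1, and the soft tissue sarcomas differed too. Stat2 measured 76.2 and 126 CPM in the NG2 cells, 34.9 and 118 in the osteosarcomas and 57.2 and 34.2 in the soft tissue sarcomas. Irf9, its partner in the response-element complex, measured 135 and 148 CPM in the NG2 cells, 65.7 and 88.1 in the osteosarcomas and 90.6 and 39.4 in the soft tissue sarcomas. Irf9 was lower in every tumour library than in either NG2 cell library, with log2 fold changes of -0.88 ± 0.43 and -1.12 ± 0.43 that did not pass (adjusted p = 0.187 and 0.117). Irf1 and Irf9 had the smallest osteosarcoma differences of all 37, ratios of 1.30 and 1.34.

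The sensors of viral RNA in the cytosol differed between the osteosarcomas by 2.25 to 2.87 times. Ddx58, which encodes RIG-I, measured 74.5 and 75.2 CPM in the NG2 cells, 43.5 and 119 in the osteosarcomas and 64.6 and 82.9 in the soft tissue sarcomas. Ifih1, which encodes MDA5, measured 63.4 and 84.4 CPM in the NG2 cells, 26.1 and 74.9 in the osteosarcomas and 27.5 and 14.7 in the soft tissue sarcomas, and both soft tissue sarcomas lay below both NG2 cell libraries. Its log2 fold change there was -1.81 ± 0.59, which did not pass (adjusted p = 0.078; under 0.05 in 4 of 12 alternative fits). Dhx58, the regulator LGP2, measured 6.07 and 9.74 CPM in the NG2 cells, 8.22 and 22.9 in the osteosarcomas and 18.1 and 10.6 in the soft tissue sarcomas, with the 3 highest values in tumours. Trim25, the ubiquitin ligase that helps activate RIG-I, measured 119 and 58.5 CPM in the NG2 cells, 21.9 and 49.2 in the osteosarcomas and 32.95 and 30.4 in the soft tissue sarcomas; all tumours were below the NG2 cells, but the NG2 cells themselves differed, and neither comparison passed (adjusted p = 0.114 and 0.0913).

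Isg15, a ubiquitin-like protein that is attached to other proteins, and Usp18, the protease that removes it and that damps the type I receptor, moved alike between the osteosarcomas. Isg15 measured 22.1 and 13.98 CPM in the NG2 cells, 6.41 and 55.9 in the osteosarcomas and 18.6 and 15.2 in the soft tissue sarcomas. Usp18 measured 11.1 and 23.1 CPM in the NG2 cells, 9.30 and 58.5 in the osteosarcomas and 34.5 and 13.5 in the soft tissue sarcomas. Osteosarcoma replicate 2 was the highest and replicate 1 the lowest of the 6 libraries for both.

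The Ifit genes encode proteins that bind foreign RNA and stop its translation. Ifit1 measured 179 and 224 CPM in the NG2 cells, 18.9 and 123 in the osteosarcomas and 97.6 and 53.1 in the soft tissue sarcomas. Ifit2 measured 52.4 and 53.6 CPM in the NG2 cells, 7.28 and 57.5 in the osteosarcomas and 75.2 and 37.1 in the soft tissue sarcomas. Ifit3 measured 4.32 and 9.95 CPM in the NG2 cells, 0.985 and 7.86 in the osteosarcomas and 10.8 and 5.86 in the soft tissue sarcomas. In all 3, osteosarcoma replicate 1 was the lowest library, and Ifit1 alone of them had both NG2 cell libraries above all tumours (log2 fold change -1.51 ± 0.83 in osteosarcomas, adjusted p = 0.227; -1.42 ± 0.82 in soft tissue sarcomas, adjusted p = 0.26). Ifit3 shares most of its sequence with Ifit3b, which measured 26.8 and 63.98 CPM in the NG2 cells, 8.62 and 70.6 in the osteosarcomas and 92.3 and 43.7 in the soft tissue sarcomas, so the counts of both are uncertain.

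The Oas family includes enzymes that make the short oligoadenylates that switch on RNase L. Each of the 5 family members was over 4-fold higher in osteosarcoma replicate 2 than in replicate 1. Oas1a measured 1.496 and 18.4 CPM in the NG2 cells, 11.01 and 95.1 in the osteosarcomas and 32.2 and 18.5 in the soft tissue sarcomas. Oas2 measured 7.56 and 26.2 CPM in the NG2 cells, 5.31 and 44.8 in the osteosarcomas and 15.5 and 10.7 in the soft tissue sarcomas. Oas3, with 0 reads in 1 NG2 cell library, measured 0 and 2.25 CPM in the NG2 cells, 1.61 and 13.6 in the osteosarcomas and 5.50 and 2.63 in the soft tissue sarcomas. Oas1a and Oas3 were also far apart between the NG2 cell libraries, and the 95% intervals of their log2 fold changes in osteosarcomas ran from -0.91 to 5.74 and from -2.02 to 7.52. Oasl2 measured 11.9 and 23.1 CPM in the NG2 cells, 21.4 and 102 in the osteosarcomas and 55.99 and 33.9 in the soft tissue sarcomas, higher in both soft tissue sarcomas and in 1 osteosarcoma than in the NG2 cells. Oasl1, which in the mouse restrains translation of Irf7, ran the other way between the NG2 cells: 83.1 and 31.1 CPM in the NG2 cells, 7.94 and 35.1 in the osteosarcomas and 32.4 and 15.1 in the soft tissue sarcomas. Oas1a reads may be shared with its near copy Oas1g, which measured 1.29 and 20.9 CPM in the osteosarcomas.

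The genes that degrade RNA or block translation were Isg20, Eif2ak2 and Samd9l. Eif2ak2, the kinase PKR, measured 11.3 and 21.6 CPM in the NG2 cells, 27.5 and 72.5 in the osteosarcomas and 40.5 and 41.3 in the soft tissue sarcomas, and all tumours lay above both NG2 cell libraries. Its log2 fold changes were 1.60 ± 0.55 and 1.31 ± 0.55, which did not pass (adjusted p = 0.0872 and 0.141). Isg20, an exonuclease, measured 7.59 and 20.7 CPM in the NG2 cells, 18.3 and 36.5 in the osteosarcomas and 43.2 and 25.5 in the soft tissue sarcomas.

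Mx1 and Mx2 encode GTPases that trap viral nucleocapsids, and both are defective in many laboratory mouse strains. Mx1 measured 7.48 and 17.7 CPM in the NG2 cells, 2.73 and 24.9 in the osteosarcomas and 19.1 and 10.1 in the soft tissue sarcomas. Mx2, annotated as a polymorphic pseudogene, measured 8.62 and 5.66 CPM in the NG2 cells, 2.77 and 14.4 in the osteosarcomas and 6.79 and 4.48 in the soft tissue sarcomas. Osteosarcoma replicate 1 was the lowest and replicate 2 the highest library for both.

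The membrane and lipid-linked effectors held the extremes of level and of difference. Rsad2, which encodes viperin, an enzyme on the endoplasmic reticulum and lipid droplets, measured 18.2 and 46.1 CPM in the NG2 cells, 6.58 and 109 in the osteosarcomas and 27.1 and 41.4 in the soft tissue sarcomas. The osteosarcomas differed by 16.5 times, the largest ratio of the 37, from 347 reads in replicate 1 and 3055 reads in replicate 2. Ifitm3, which keeps viruses from fusing with the endosome, measured 314 and 482 CPM in the NG2 cells, 546 and 1089 in the osteosarcomas and 768 and 457 in the soft tissue sarcomas. Per kilobase of exon it had the highest level of the 37 in each group, 587, 1206 and 903 CPM per kilobase in NG2 cells, osteosarcomas and soft tissue sarcomas, and both osteosarcomas lay above both NG2 cell libraries (log2 fold change 1.04 ± 0.47, adjusted p = 0.156). Bst2, or tetherin, which holds budding viruses at the cell surface, measured 11.97 and 13.2 CPM in the NG2 cells, 11.996 and 30.8 in the osteosarcomas and 72.5 and 10.8 in the soft tissue sarcomas; here soft tissue sarcoma replicate 1 was the highest library and stood apart from the other 5.

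The GTPases of the Gbp and Irg families attack pathogen vacuoles and respond strongly to interferon gamma. Their sum was highest in NG2 cell replicate 2 (528 CPM) and next in osteosarcoma replicate 2 (394 CPM). For Gbp2, soft tissue sarcoma replicate 1 lay above osteosarcoma replicate 2. Gbp2 measured 58.8 and 183 CPM in the NG2 cells, 7.96 and 80.3 in the osteosarcomas and 133 and 59.4 in the soft tissue sarcomas. Gbp3 measured 69.9 and 135 CPM in the NG2 cells, 12.1 and 77.2 in the osteosarcomas and 39.4 and 30.2 in the soft tissue sarcomas. Igtp measured 28.1 and 84.2 CPM in the NG2 cells, 16.6 and 93.6 in the osteosarcomas and 30.7 and 23.4 in the soft tissue sarcomas. Osteosarcoma replicate 1 was the lowest library for these 3, and for Gbp2 replicate 2 was 10.1 times it. Irgm1 measured 85.6 and 125 CPM in the NG2 cells, 36.7 and 143 in the osteosarcomas and 62.1 and 41.98 in the soft tissue sarcomas, with the soft tissue sarcomas below both NG2 cell libraries. Igtp shares 8.01% of its exon bases with Irgm2 on the same strand.

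The remaining 7 members have varied roles. Xaf1, which promotes apoptosis, measured 13.02 and 24.6 CPM in the NG2 cells, 13.2 and 75.4 in the osteosarcomas and 28.4 and 14.1 in the soft tissue sarcomas. Ifi44 measured 9.28 and 14.4 CPM in the NG2 cells, 14.4 and 69.4 in the osteosarcomas and 56.2 and 25.7 in the soft tissue sarcomas. Rtp4 measured 25.8 and 58.96 CPM in the NG2 cells, 21.7 and 117 in the osteosarcomas and 79.3 and 48.8 in the soft tissue sarcomas. In these 3, osteosarcoma replicate 2 was the highest library, by 4.83 to 5.72 times over replicate 1. Trim30a, a mouse ubiquitin ligase that damps Toll-like receptor signalling, measured 52.2 and 101 CPM in the NG2 cells, 11.8 and 86.6 in the osteosarcomas and 32.3 and 32.3 in the soft tissue sarcomas. Parp14, a mono-ADP-ribosyltransferase, measured 44.4 and 76.5 CPM in the NG2 cells, 25.2 and 93.8 in the osteosarcomas and 41.6 and 32.3 in the soft tissue sarcomas. For these 2 the soft tissue sarcomas lay below both NG2 cell libraries. Ifi27 measured 64.2 and 71.7 CPM in the NG2 cells, 61.6 and 107 in the osteosarcomas and 100.03 and 100.1 in the soft tissue sarcomas. Ifi35 measured 46.5 and 42.8 CPM in the NG2 cells, 39.1 and 71.5 in the osteosarcomas and 46.2 and 32.04 in the soft tissue sarcomas. These 2 were among the 6 members that differed by less than 2-fold between the osteosarcomas. Ifi35 overlaps the antisense gene Gm11626 over 16.8% of its exon bases. With the strand setting unknown, reads in that shared part cannot be told from that gene's.

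Because the osteosarcomas disagreed, each was also set alone against the NG2 cells, with the spread taken from the other groups, a fit listed among the alternatives. These fits restate the difference between the replicates and are no separate evidence of it. With the lumbar tumour (replicate 2) alone, 3 members were called higher, Oasl2 (log2 fold change 2.54, adjusted p = 0.0328), Eif2ak2 (2.13, adjusted p = 0.0355) and Ifi44 (2.55, adjusted p = 0.0381), and Irf1 was called lower. The 3 are 8.11% of the members, near the 7.76% of all genes that were called higher, and the 1 is 2.70%, against 7.11% of all genes. With the tibial tumour (replicate 1) alone, 0 members were called higher and 7 lower (18.9%), against 7.74% and 8.90% of all genes. The 7 were Irf1, Samd9l, Ifit1, Ifit2, Gbp2, Gbp3 and Trim30a, of which Gbp2 had the largest log2 fold change (-3.91, adjusted p = 0.0461) and Samd9l the smallest adjusted p (0.0127, at a log2 fold change of -2.52). Irf1 was the member called in both. These fits share the NG2 cell libraries, and each assumes that a lone tumour varies like the other groups.

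The difference between the osteosarcomas was larger among members with the response-element core in the 250 bases before the start. The 13 members with the core had a median difference of 2.67 on the log2 scale, 1.32 to 3.95, and 13 of 13 were at least 2-fold higher in replicate 2. The 16 without it had a median of 1.47, 0.37 to 2.97, and 11 of 16 were at least 2-fold higher. Over all tested genes with a promoter entry the medians were 0.11 for 423 genes with the core and 0 for 12055 without it. Of these, 23.9% with the core and 14.2% without it were at least 2-fold higher in replicate 2. Of the promoters printed at the start, those of Irf1 and Samd9l belong to the second set. Those of Rsad2, Gbp2, Oas1a and Isg15 belong to the first, but they were picked for their large osteosarcoma difference. This is a description across genes of 1 pair of libraries.

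Other values moved with that difference, and their part in it was not tested. Endothelial markers were higher in replicate 2 for 8 of 8 genes, summing to 143 and 398 CPM, with Pecam1 at 41.05 and 83.3 CPM and Kdr at 20.6 and 83.7 CPM. Pericyte and mural cell markers were higher for 8 of 10, summing to 611 and 1794 CPM. Pan-leukocyte markers summed to 325 and 655 CPM but were higher in replicate 2 for 3 of 5. Macrophage and monocyte markers were higher in replicate 2 for 2 of 10 and summed to 2133 and 1982 CPM. T and natural killer cell markers were higher for 6 of 10 and B cell markers for 5 of 8, summing to at most 13.1 and 5.51 CPM in either osteosarcoma, with Cd3g and Ms4a1 at 0 in replicate 1. Interferon genes gave few reads in either osteosarcoma. Ifnb1, Ifna1, Ifna2 and Ifna4 had 0 reads in both together, a count that allows up to 0.0371 CPM, Ifng had 5 reads, all in replicate 2, and Ifnk had 22 reads in replicate 1 and 3 in replicate 2.

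Most of the interferons with reads had their highest counts in the NG2 cells. The exception was Ifne, with 15 and 3 reads in the soft tissue sarcomas and 0 in the other groups, too few to be tested. Of 9 ligand genes 7 had reads and 5 could be tested. Of these 4 fell in osteosarcomas, 2 fell in soft tissue sarcomas and 0 rose. Over all tested genes 11.0% fell and 10.5% rose in osteosarcomas, and 9.40% fell and 9.89% rose in soft tissue sarcomas. The same shares belong beside the receptor, kinase, sensor, regulator and marker counts below. Ifng measured 12.2 and 24.6 CPM in the NG2 cells (1514 reads) and had 5 reads in each tumour group. It fell in both (adjusted p = 0.0409 in osteosarcomas and 0.0419 in soft tissue sarcomas). Ifnb1 had 76 reads in the NG2 cells and 0 in the tumours, at least 25.7-fold lower in osteosarcomas and at least 28.4-fold lower in soft tissue sarcomas (adjusted p = 0.0455 and 0.0469), taking 3 reads over a group as the floor. Ifna2 had 358 reads in the NG2 cells and 0 in the tumours, at least 121-fold lower in osteosarcomas. Replicate 1 held 320 of these reads and replicate 2 held 38, and from replicate 2 alone the bound is 23.5-fold. The Ifna genes are near-identical copies and their separate counts are uncertain; Ifna1 and Ifna2 passed in osteosarcomas (adjusted p = 0.049 and 0.0493) and missed the threshold in soft tissue sarcomas (adjusted p = 0.0507 and 0.0514). None of Ifnb1, Ifna1 and Ifna2 was called in osteosarcomas when any 1 of the 6 libraries was left out, and Ifng was called in 1 of those 6 fits. In soft tissue sarcomas Ifnb1 and Ifng were each called in 2 of 6, and not without either NG2 cell library or either soft tissue sarcoma library. Ifng is a product of T and natural killer cells and Ifna of plasmacytoid dendritic cells, and their part in these differences was not tested. Of the 10 T and natural killer cell markers 7 fell in each tumour and 0 rose, and 2 had a log2 fold change above 0 in soft tissue sarcomas; Lck measured 195 and 293 CPM in the NG2 cells and at most 12.8 CPM in a tumour. Of 5 plasmacytoid dendritic cell markers 2 fell in each tumour, Siglech (52.5 and 36.2 CPM in the NG2 cells and at most 2.92 CPM in a tumour) and Spib, and 0 rose. The 5 summed to 587 and 624 CPM in the NG2 cells, 286 and 231 CPM in the osteosarcomas and 661 and 534 CPM in the soft tissue sarcomas, mostly from Tcf4, which measured 454 and 545 CPM in the NG2 cells, 285 and 228 in the osteosarcomas and 655 and 532 in the soft tissue sarcomas.

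Of the 5 interferon receptor genes tested, all with reads in every library, 2 fell in osteosarcomas, 0 fell in soft tissue sarcomas and 0 rose. Ifnar1 measured 431 and 245 CPM in the NG2 cells, 99.5 and 63.999 in the osteosarcomas and 152 and 138 in the soft tissue sarcomas; the fall in osteosarcomas was 4.14-fold (log2 fold change -2.05 ± 0.39, adjusted p = 0.0204) and the value in soft tissue sarcomas did not pass (adjusted p = 0.0705). Ifngr1 measured 467 and 464 CPM in the NG2 cells, 189.7 and 114 in the osteosarcomas and 266 and 190.2 in the soft tissue sarcomas and fell by 1.62 on the log2 scale in osteosarcomas (adjusted p = 0.0278; 0.0843 in soft tissue sarcomas). With 1 library left out, Ifngr1 was called in osteosarcomas in 1 of 6 fits, the one without osteosarcoma replicate 1, and its adjusted p was at most 0.0942; Ifnar1 was called in 3 of 6, and lost without NG2 cell replicate 1 or either soft tissue sarcoma library (at most 0.0717). The partner chain Ifnar2 measured 29.6 and 37.1 CPM in the NG2 cells, 29.3 and 32.9 in the osteosarcomas and 48.1 and 41.3 in the soft tissue sarcomas, and did not pass. For Ifnar1 and Ifngr1, unlike the stimulated genes, osteosarcoma replicate 2 was the lower library.

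**Figure D4:**
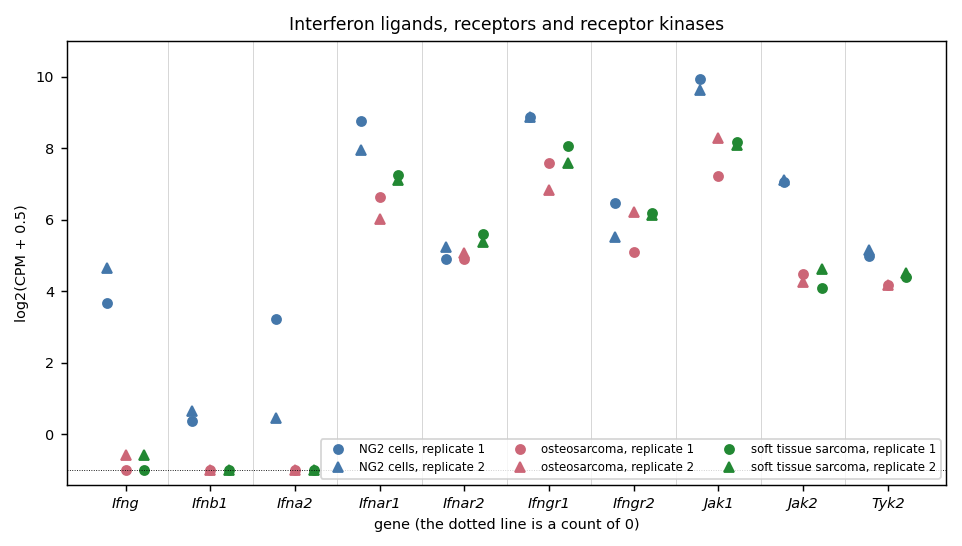
Level of 3 interferon ligands, 4 receptor chains and 3 receptor kinases in each library, as log2(CPM + 0.5); colours are groups, circles replicate 1 and triangles replicate 2, and the dotted line is a count of 0. The ligands lie above the dotted line in the NG2 cells and on or near it in the tumours, and Jak2 separates all tumours from the NG2 cells.

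Of the receptor kinases, 2 of 3 fell in both tumours and 0 rose. Jak2 measured 131 and 137 CPM in the NG2 cells, 21.96 and 18.7 in the osteosarcomas and 16.6 and 24.1 in the soft tissue sarcomas (log2 fold change -2.72 ± 0.31, adjusted p = 0.0071 in osteosarcomas, and -2.72 ± 0.31, adjusted p = 0.00918 in soft tissue sarcomas). Jak1 measured 973 and 794 CPM in the NG2 cells, 149 and 309.8 in the osteosarcomas and 290.3 and 270.1 in the soft tissue sarcomas and fell in both (adjusted p = 0.025 and 0.0388). Without any 1 library Jak2 was still called in osteosarcomas, while in soft tissue sarcomas it was lost without either library of that group (adjusted p = 0.0793 and 0.0706). Both Jak1 calls were lost without either NG2 cell library or either soft tissue sarcoma library (adjusted p at most 0.0913 and 0.228). Tyk2 did not pass (adjusted p = 0.0734 and 0.185).

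The sensors and adaptors upstream of interferon gave 2 calls of 11 in osteosarcomas and 1 in soft tissue sarcomas, all lower. Tbk1, the kinase that activates Irf3, measured 126 and 106 CPM in the NG2 cells, 41.5 and 63.6 in the osteosarcomas and 31.1 and 32.3 in the soft tissue sarcomas and fell in both (adjusted p = 0.047 and 0.0165). The osteosarcoma call held in 4 of 12 alternative fits and, with 1 library left out, only without osteosarcoma replicate 2 (adjusted p up to 0.152); the soft tissue sarcoma call was lost without either library of that group or either NG2 cell library (up to 0.135). Tlr9, a DNA sensor of B cells and plasmacytoid dendritic cells, measured 6.01 and 10.9 CPM in the NG2 cells, 0.246 and 0.533 in the osteosarcomas and 2.03 and 0.842 in the soft tissue sarcomas and fell in osteosarcomas (adjusted p = 0.0235; with 1 library left out, only without osteosarcoma replicate 2, and otherwise 0.0505 to 0.0819). Tmem173, which encodes STING, measured 65.4 and 108 CPM in the NG2 cells, 15.1 and 54.97 in the osteosarcomas and 84.6 and 93.6 in the soft tissue sarcomas and did not pass. Of the feedback and other regulators, 5 of 8 fell in osteosarcomas, 6 of 8 fell in soft tissue sarcomas and 0 rose. Irf8, a factor of myeloid and B cells, measured 231 and 177 CPM in the NG2 cells, 24.3 and 21.6 in the osteosarcomas and 84.995 and 60.5 in the soft tissue sarcomas and fell in both (adjusted p = 0.00565 and 0.0252). Ptpn6, a phosphatase of blood cells, measured 282 and 166 CPM in the NG2 cells, 37.1 and 38.1 in the osteosarcomas and 56.96 and 51.6 in the soft tissue sarcomas and fell in both (adjusted p = 0.00898 and 0.0157). Irf5, Irf2 and Pias1 also fell in both, and Socs3 fell in soft tissue sarcomas. The 5 osteosarcoma calls of these regulators held whichever library was left out; the 6 in soft tissue sarcomas were each lost without either library of that group or without NG2 cell replicate 1, and those of Irf8, Irf5, Irf2 and Socs3 also without NG2 cell replicate 2. Over all 32 tested genes of the pathway that are no members, 15 fell in osteosarcomas and 11 in soft tissue sarcomas, 0 rose, and 0 were called between the tumours (2 by DESeq2); of all genes, 11.0% and 9.40% fell. These counts were 6 to 13 and 0 to 14 when 1 library was left out, with 0 calls in soft tissue sarcomas without either of its own libraries, 1 and 3 without an NG2 cell library, and 6 in osteosarcomas without NG2 cell replicate 1 or either soft tissue sarcoma. Pan-leukocyte markers summed to 3749 and 2912 CPM in the NG2 cells and to at most 785 CPM in any tumour, while the macrophage and monocyte markers given above were highest in the soft tissue sarcomas; the part of either in these falls was not tested.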

How the data were processed

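Per the labels' protocols, RNA was reverse transcribed by template switching with oligo(dT) priming, then amplified by PCR. The deposited values are raw read counts per Ensembl gene, 1 table per library. STAR, HTSeq, Trim Galore, cutadapt, FastQC and DESeq2 and the builds GRCm38 and mm10 are named in the submitters' processing notes; versions, roles, annotation release and strand setting are not given in the sources used here, so overlapping genes and near-identical copies are uncertain. The 5 counters of unassigned reads in each table were left out of library sizes and tests; reads outside genes came to 33.2% of all reads in the NG2 cells and 19.5 to 23.4% in the tumours. Symbols and positions came from GENCODE M21, which held 36639 of the 38561 IDs.

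From the counts, edgeR 4.0.16 in R 4.3.3 fitted 3 groups of 2 libraries in 1 model (filterByExpr with min.count 10 and min.total.count 15, TMM scaling), with quasi-likelihood F tests and Benjamini-Hochberg adjustment over 19024 genes. The biological coefficient of variation was 0.578 with 3 residual degrees of freedom, so small changes are not detectable. Intervals are 95%, and PCR reads without molecular identifiers make limits from counts cover counting error only. Differences between replicates use log2 of CPM plus 0.5. The steps were tested on simulated data. The alternatives were DESeq2 1.42.0, its size factors in edgeR, no filter, 2 groups only, a replicate block, each library left out, and, chosen after seeing the data, no immunoglobulin genes (0.974% and 5.10% of reads in the NG2 cells).

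The members, the pathway and marker lists and the tests were chosen with earlier results of these data known. By the naming rule every member is accounted for, called members with the value in every library and the others as ranges with up to 8 examples by mean level; values in every library are given here for all 37. Up to 4 genes of each pathway list are named in order of adjusted p, and the others, with the marker genes named, were chosen after their values were seen. Replicate numbers in the labels did not pair the libraries (correlations of same-numbered deviations 0.049, -0.00277 and -0.0864), so the block is an alternative. A result that names a withheld item is not reported here.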

Additional observations from a re-analysis of the deposited data

How the results depend on the processing

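The number of members called against NG2 cells was 1 in osteosarcomas and 2 in soft tissue sarcomas. DESeq2 called 3 (Irf1 and Samd9l lower, Eif2ak2 higher) and 4 (Irf1, Ifih1, Trim25 and Samd9l lower). A fit of the 2 groups alone called 1 and 7 (in soft tissue sarcomas Ifi44 higher, the others lower). Of all genes that fit called 2083 and 5452, where the main fit called 4086 and 3671. Leaving out 1 library gave 0 to 7 and 0 to 6, with 0 in both comparisons without any 1 of the NG2 cell or soft tissue sarcoma libraries. Each fit that called 0 members against NG2 cells also called fewer of all genes in that comparison than the main fit. Genes outside the list lost their calls there too, and the cause was not tested. DESeq2 size factors, no filter, no immunoglobulin genes and the replicate block left the counts at 1 and 2. Between the tumours 0 members were called by edgeR and by DESeq2 and in every alternative, and 0 had an unadjusted p under 0.05. No called member changed direction in any alternative. Members called in neither fit could change sign: without osteosarcoma replicate 2, 13 of 37 did so in osteosarcomas against NG2 cells and 25 of 37 between the tumours.

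Over all genes, osteosarcomas against NG2 cells gave 4086 calls (DESeq2 6966, 2 groups alone 2083, replicate block 2660, 1 library left out 1278 to 3429), soft tissue sarcomas against NG2 cells 3671 (DESeq2 6587, replicate block 2209, 1 library left out 0 to 4694), and the tumours against each other 27 (DESeq2 1925, no filter 409, 2 groups alone 0, replicate block 8, 1 library left out 0 to 315). Pathway genes called were 15 in osteosarcomas (8 with 2 groups alone) and 0 between the tumours (2 by DESeq2). Osteosarcoma replicate 2 was higher for 37 of 37 members also with a pseudocount of 2 (median 1.90) and without TMM (median 2.21).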
